A study of Mus musculus with 6 samples.

Results

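The neuropeptide genes of the hypothalamus examined here were 10, namely Avp, Oxt, Hcrt, Gal, Pmch, Trh, Crh, Agrp, Cartpt and Ghrh. They were followed through every probe set that the platform annotation assigns to 1 of these symbols and to no other gene. The rule found 8 probe sets for 6 of the 10 genes, out of 12422 probe sets on the array. Pmch, Crh, Agrp and Cartpt had no probe set under this rule and were not analysed here. Total brain RNA of 6 male C57BL/6J mice was measured, 1 one-colour Affymetrix array per animal. The knockout group (Ncam-/-, n = 3) carried a constitutive knockout of Ncam, the gene of an adhesion molecule of neurons and glia, which acts in all cells and from development onward. The wild-type group (Ncam+/+, n = 3) had the same genetic background. Both groups held 2 animals aged 2 months (replicates 1 and 2) and 1 aged 3 months (replicate 3). The comparison asked which of these peptide transcripts differ in the brain without NCAM.

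Neuropeptides are cut from larger precursor proteins inside secretory granules and act on receptors of other neurons or, through the pituitary, on the body. Vasopressin (Avp) regulates water balance, blood pressure and social behaviour, and in the suprachiasmatic nucleus its gene is an output of the circadian clock. Oxytocin (Oxt) drives milk ejection and labour and shapes social behaviour, and both are made by large neurosecretory neurons whose axons end in the posterior pituitary. Hcrt encodes the orexins, which keep the brain awake. Gal encodes galanin, a peptide found in many neurons that also make another transmitter. Trh and Ghrh encode the releasing hormones that drive thyrotropin and growth hormone secretion from the anterior pituitary. These neurons are few, so in whole brain a lower signal from fewer cells of a type and one from less RNA per cell cannot be told apart.

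Avp and Oxt lie next to each other on mouse chromosome 2, on opposite strands, with 0 genes listed between them in the RefSeq table of assembly GRCm38.p6. Their upstream sequences are shown because these neighbours turned out to have the widest and the narrowest spread between animals among the 6 neuropeptide probe sets that were tested. Each sequence covers the 200 bases before the annotated start, 5′ to 3′, from RefSeq (GRCm38.p6). The Avp stretch is chr2:130582589-130582788 on the minus strand and the Oxt stretch chr2:130575969-130576168 on the plus strand. Capitals mark every match, on either strand, to any of 4 motifs. The first, CACGTG, is the E-box that clock factors bind. The next, TGACC, is a half-site of nuclear receptors. A further one, TGACG, is a half-site of cyclic AMP response elements. The last, ATAAA, is a TATA-type element.
Avp: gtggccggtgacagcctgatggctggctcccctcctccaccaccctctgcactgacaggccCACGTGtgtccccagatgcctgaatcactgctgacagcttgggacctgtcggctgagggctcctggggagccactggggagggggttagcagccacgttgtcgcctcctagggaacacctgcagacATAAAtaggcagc
Oxt: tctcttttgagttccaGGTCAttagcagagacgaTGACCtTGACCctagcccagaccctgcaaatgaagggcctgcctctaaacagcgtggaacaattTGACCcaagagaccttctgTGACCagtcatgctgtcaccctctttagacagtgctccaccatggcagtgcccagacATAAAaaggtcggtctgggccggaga
The Avp stretch held 1 E-box, beginning 139 bases before the start, and the Oxt stretch held 0. The same letters occur in 5.26% of the 32851 promoter windows of this length. Oxt held 5 matches to TGACC, 4 on its own strand and 1 on the other, and Avp held 0, where 29.4% of all windows hold at least 1. Both held 1 ATAAA, as 30.9% of windows do, and neither held TGACG, which 15.7% hold. None of these matches overlap. A match describes the letters and is not evidence of binding, and any link of these matches to the spread was not tested.

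The arrays were alike in overall signal but 2 knockout arrays stood apart in tissue content. Median signals were 119.4 to 130.7 in knockout, against 121.8 to 127.3 in wild-type brains, and the pairwise correlation of arrays was 0.967 to 0.985. Ncam1 itself, by the probe set with the lowest p, read 276.2, 208.7 and 327.4 in knockout replicates 1, 2 and 3, against 1346, 1448 and 1216 in wild-type replicates 1, 2 and 3. Its _f_at probe set differed less, at 86.3 ± 14.9 in knockout and 147 ± 7.02 in wild-type brains (SD). A dim one overlapped, at 3.53 to 6.92 in knockout, against 4.54 to 8.49 in wild-type brains. Where the Ncam1 probes lie relative to the disrupted part of the gene was not tested. Of the brain genes, Snap25, a synaptic membrane protein, was bright on every array, at 7585 to 8508 in knockout, against 8370 to 8409 in wild-type brains. The dimmest of the 7 brain probe sets, 1 of Gfap, read 156.7 to 180.6 in knockout, against 141.4 to 179.6 in wild-type brains. Knockout replicate 1 carried pituitary transcripts: the summed signal of the 12 probe sets of 10 pituitary genes was 16269 there, 1419 and 1600 in knockout replicates 2 and 3, and 1077 to 1337 in wild-type animals. Gh gave 11613 and Prl 2141 of the sum in knockout replicate 1. Ghrhr and the dim Gnrhr probe sets were not highest in that animal. Knockout replicate 2 was poor in cerebellar transcripts, with a summed signal over 11 probe sets of 8 genes of 1728, against 8546 and 9623 in the other knockout and 9019 to 9959 in wild-type animals. No marker of either list read 0 on any array, although the dimmest was at 0.964. The 3' to 5' ratio of the Gapdh controls, a sign of RNA quality, spanned 0.811 to 0.826 for Ncam-/- and 0.768 to 0.798 for Ncam+/+ animals. The part of this difference in the values below was not tested.

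No neuropeptide gene that could be tested passed the test for a difference between knockout and wild-type brains. Of the 8 probe sets, 6 (Avp, Oxt, Hcrt, Trh and both for Gal) were bright enough to be tested, with a mean log2(signal + 16) at or above 6.46, a signal of 72.2. With limma, 0 of these 6 passed an adjusted p under 0.05, where 0.0268% of all 7453 tested probe sets did, and 0 had an unadjusted p under 0.05, where 6.94% of all did. The knockout and wild-type signals overlapped for all 8 probe sets, dim ones included. Over the array, 12.9% of the 7453 tested probe sets and 12.0% of all 12422 had no overlap. Differences below subtract the wild-type mean of log2(signal + 16) from the knockout mean, with SE and 95% intervals from the same limma fit. That fit draws the spread of each probe set toward the spread usual at its brightness. The median over the 6 was -0.01, against 0.00 over all tested probe sets, and 3 were positive and 3 negative.

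**Figure D1:**
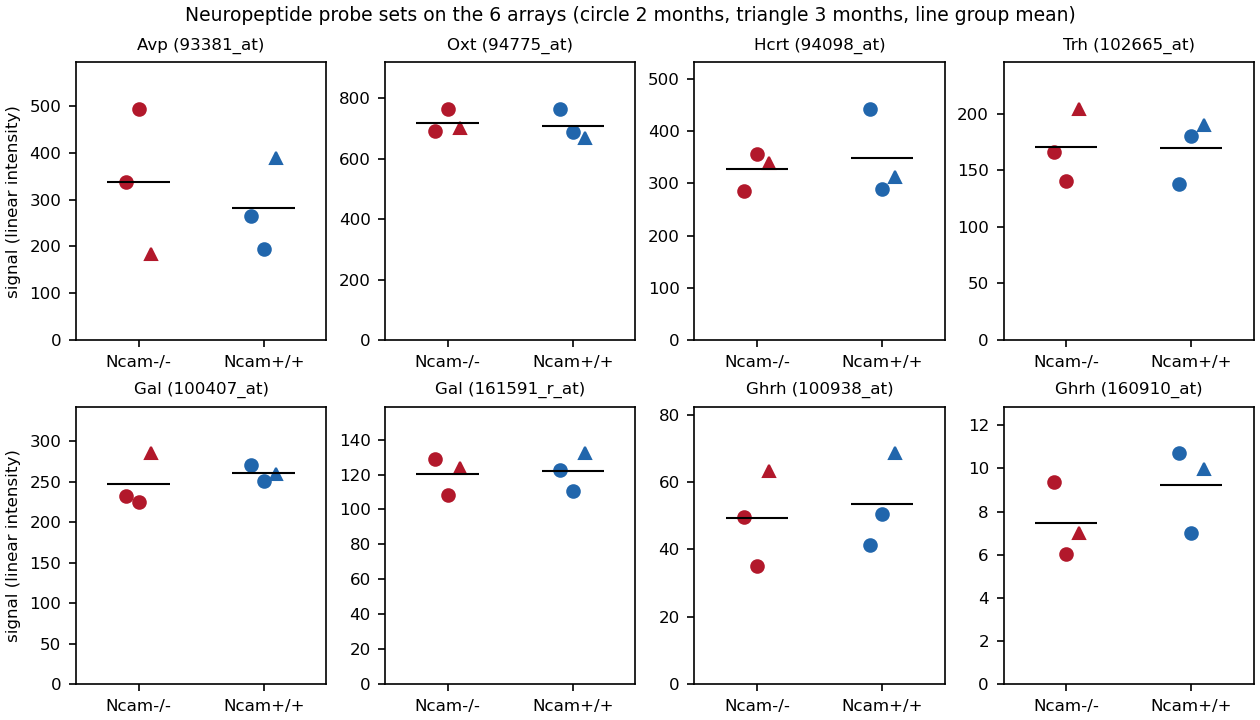
Signal (linear intensity, axes from 0) of each of the 8 neuropeptide probe sets, 3 Ncam-/- animals on the left and 3 Ncam+/+ animals on the right of each panel. Circles are 2-month-old and triangles 3-month-old animals, and lines are group means. The groups overlap in every panel, and Avp is spread most widely, from 182.6 to 494.7.

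Avp, the vasopressin precursor, varied most between animals. Its signal was 338.1, 494.7 and 182.6 in knockout replicates 1, 2 and 3, against 264.6, 194.5 and 388.5 in wild-type replicates 1, 2 and 3. The highest and the lowest of the 6 values both belonged to knockout animals, so the wild-type values lay entirely within the knockout range. The means were 338.5 ± 156 in knockout and 282.5 ± 98.3 in wild-type brains (SD, n = 3 each), with a log2 difference of 0.20 ± 0.33 (SE). The interval ran from -0.56 to 0.95, which as a ratio is 0.679 to 1.93, and the adjusted p was 0.917 in limma. The SE and interval are smaller than the Avp values alone would give, since Avp varied more than is usual at its brightness. The sign turned on which animals were included. Leaving out knockout replicate 2, the animal with little cerebellar signal, gave -0.12, leaving out wild-type replicate 2 gave -0.03, and leaving out knockout replicate 3 gave 0.56. Without both knockout replicates that stand apart in tissue content, the remaining knockout animal lay -0.54 from the wild-type animals (adjusted p = 0.567 in limma, the lone animal being assumed to vary like the wild-type group). In that setting 4 of the 8 neuropeptide probe sets had no overlap, and so did 61.0% of all tested probe sets.

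Oxt, the oxytocin precursor, was nearly constant. It read 690.7, 763.3 and 700.2 in knockout replicates 1, 2 and 3, against 766.1, 687.5 and 669.6 in wild-type replicates 1, 2 and 3. The largest of these values was only 1.14 times the smallest, and the 3 knockout values lay within the wild-type range. The means were 718 ± 39.5 in knockout and 707.8 ± 51.3 in wild-type brains, a log2 difference of 0.02 ± 0.09 with an interval from -0.17 to 0.22 (adjusted p = 0.976 in limma). As a ratio this interval spans 0.887 to 1.16. The difference was -0.02 without knockout replicate 2 and -0.02 without wild-type replicate 3.

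Hcrt, the orexin precursor, read 285.2, 357 and 339.2 in knockout replicates 1, 2 and 3, against 443.4, 288.8 and 312.8 in wild-type replicates 1, 2 and 3. Wild-type replicate 1 was the highest of all, and the other 5 animals lay between 285.2 and 357. The means were 327.1 ± 37.4 in knockout and 348.3 ± 83.2 in wild-type brains, a log2 difference of -0.07 ± 0.16 with an interval from -0.43 to 0.30 (adjusted p = 0.945 in limma). The difference was 0.02 without knockout replicate 1 and 0.11 without wild-type replicate 1, so its sign rested on either of these animals.

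Gal, the galanin precursor, had a probe set of the ordinary kind and one with the suffix _r_at, which marks a less specific design. By the ordinary one it read 232.7, 224.5 and 285.9 in knockout replicates 1, 2 and 3, against 271.1, 250.5 and 260.1 in wild-type replicates 1, 2 and 3. Knockout replicates 1 and 2 were the lowest of all animals and knockout replicate 3 the highest. The means were 247.7 ± 33.3 in knockout and 260.6 ± 10.4 in wild-type brains, with a log2 difference of -0.08 ± 0.12 and an interval from -0.34 to 0.19 (adjusted p = 0.912 in limma). The less specific probe set had 120.3 ± 10.9 in knockout and 121.9 ± 11.0 in wild-type brains, a log2 difference of -0.02 ± 0.14. Its sign turned without knockout replicate 2 (0.05) and without wild-type replicate 3 (0.04), and that of the ordinary one turned without both knockout replicates 1 and 2 (0.13). On the less specific probe set knockout replicate 3, at 123.8, was not the highest animal, so the order of animals seen on the ordinary one was not repeated.

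Trh and Ghrh encode the hypothalamic hormones that act on the anterior pituitary. Trh read 166, 140.8 and 204.7 in knockout replicates 1, 2 and 3, against 137.6, 180.5 and 190.2 in wild-type replicates 1, 2 and 3. The groups overlapped over nearly their whole range, with means of 170.5 ± 32.2 in knockout and 169.4 ± 28.0 in wild-type brains. The log2 difference was 0.01 ± 0.17 with an interval from -0.37 to 0.39 (adjusted p = 0.997 in limma). It was -0.12 without knockout replicate 3 and -0.12 without wild-type replicate 1. Ghrh was dim and was not tested with the others. The first of its probe sets read 49.5, 35.2 and 63.3 in knockout replicates 1, 2 and 3, against 41.3, 50.4 and 68.7 in wild-type replicates 1, 2 and 3, and the other read 6.05 to 9.37 in knockout, against 7.0 to 10.7 in wild-type brains. Both had lower means in knockout brains by 0.09 and 0.10 on the log2 scale, with unadjusted p of 0.71 and 0.386 in limma when no filter was applied. The first turned to 0.07 without knockout replicate 2, 0.06 without wild-type replicate 3 and 0.21 without knockout replicates 1 and 2, and the second was -0.27 with 1 in place of 16 added before the logarithm. The knockout animal rich in growth hormone transcript, replicate 1, lay within the range of the other animals for Ghrh, Trh, Avp, Oxt and Gal on its ordinary probe set, and had the lowest Hcrt value of the 6.

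**Figure D2:**
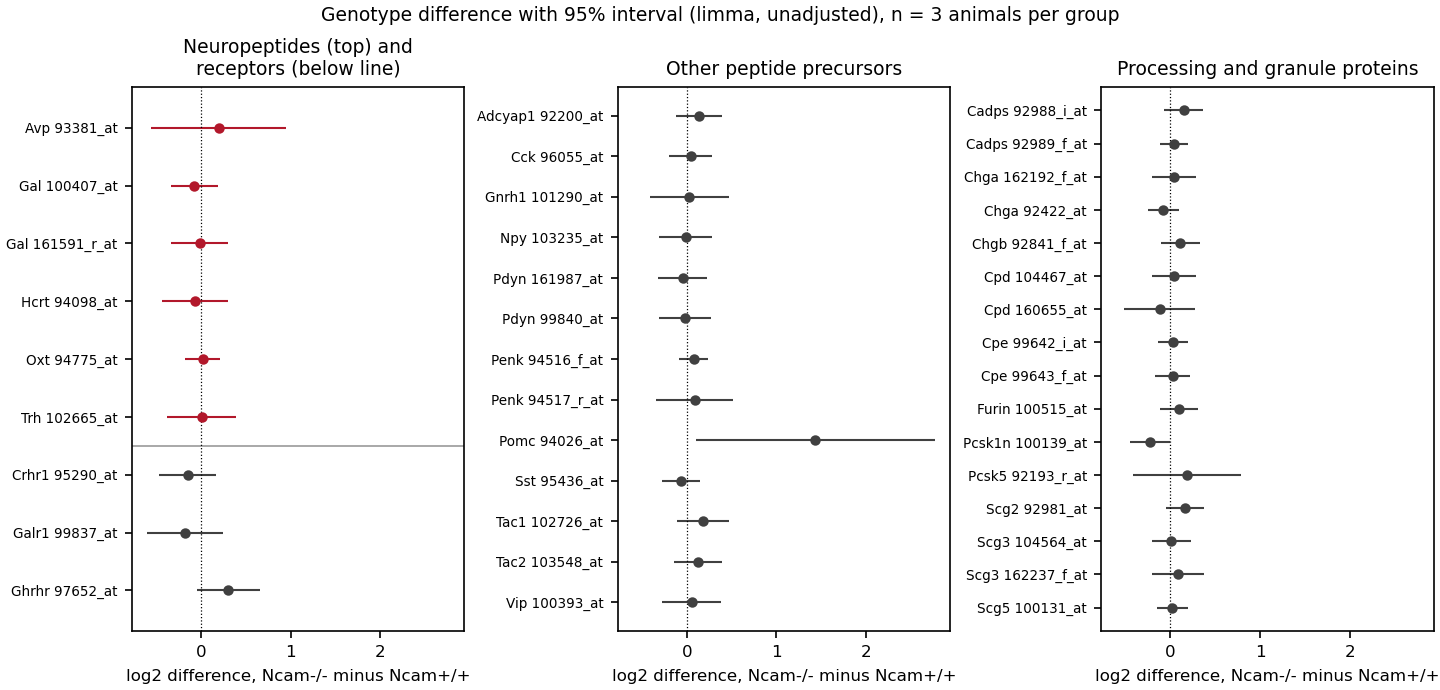
Log2 difference, Ncam-/- minus Ncam+/+, with the 95% interval of limma (not adjusted) for each tested probe set of the neuropeptides and of their receptors (left), of other peptide precursors (middle) and of processing and granule proteins (right). The intervals of all 6 neuropeptide probe sets include 0, and Avp has the widest of them, from -0.56 to 0.95.

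The neuropeptide probe sets ranged from narrow to very wide in their spread between animals. The SD within a genotype, pooled over both groups on the log2 scale, was 0.59 for Avp, which exceeded that of 98.6% of all tested probe sets, whose median was 0.14. Among the 2073 tested probe sets within 0.5 log2 units of the brightness of Avp, it exceeded 99.2%. Hcrt followed with 0.25 and Trh with 0.24, above 84.2% and 81.6% of all tested probe sets. Gal had 0.13 by the ordinary and 0.12 by the less specific probe set. Oxt had the smallest SD of the 6, 0.09, above only 20.9% of tested probe sets and 32.8% of the 1319 of like brightness. Avp and Oxt, whose genes are adjacent and whose products are made in the same nuclei by different neurons, stood at opposite ends of this ordering. The spread is a description of 3 animals per genotype and includes both biological and technical variation. Only 1 Avp probe set exists on the array under the rule, so no second measurement of the transcript was available.

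**Figure D3:**
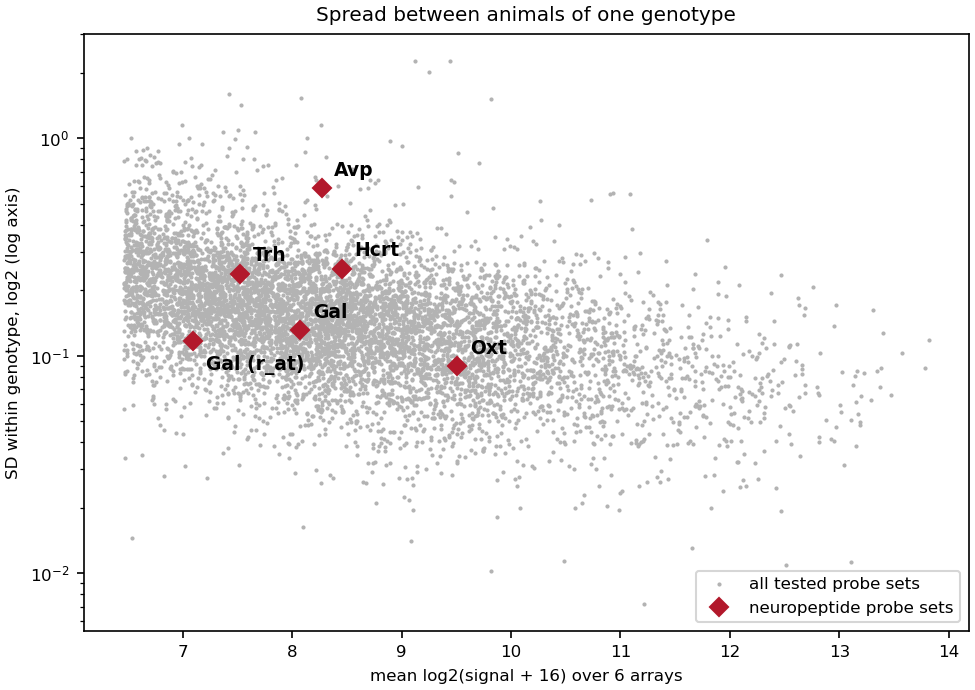
SD within genotype on the log2 scale (log axis) against mean log2(signal + 16) for all 7453 tested probe sets (grey) and the 6 neuropeptide probe sets (red diamonds). Avp, with an SD of 0.59, lies at the upper edge of the cloud at its brightness, and Oxt, with 0.09, lies in its lower part.

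The order of the genotypes in Avp was opposite at the 2 ages. At 2 months both knockout animals (338.1 and 494.7) lay above both wild-type animals (264.6 and 194.5), and at 3 months the knockout animal (182.6) lay below the wild-type animal (388.5). Among the 8 neuropeptide probe sets, of which 6 were tested, 2 (Avp and the ordinary one of Gal, both tested) had no overlap at 2 months, where 36.5% of all tested probe sets had none. The log2 difference of Avp was 0.81 at 2 months and -1.03 at 3 months. The difference between the ages, -1.83 ± 0.37, had an unadjusted p of 0.00193 and an adjusted p of 0.511 as an interaction in limma, and so did not pass. Of the 6 neuropeptide probe sets, 0 passed this interaction after adjustment (background 0.0268%) and 1, Avp, had an unadjusted p under 0.05 (background 5.70%). With 1 animal per genotype at 3 months, only the 2-month-old pairs add to the spread of Avp itself in this fit. The fit then drew that spread toward the one usual at this brightness. The SE of 0.37 is therefore smaller than these pairs alone would give, and the unadjusted p rests partly on other probe sets. In the 2-month-old animals alone, Avp was also the 1 neuropeptide with an unadjusted p under 0.05 (0.00697, adjusted p = 0.627 in limma), where 6.40% of all tested probe sets had one. That p rests on the same 2-month-old animals and on a spread drawn in the same way, so it is no separate evidence. The interaction fit was added after the values had been seen.

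No neuropeptide passed the test for age alone. In the fit with age as a covariate, 0 of the 6 probe sets differed between 3 and 2 months after adjustment (background 0.0268%). Trh was higher in both 3-month-old animals (204.7 and 190.2) than in any 2-month-old animal (137.6 to 180.5), with a log2 difference of 0.32 ± 0.15 (unadjusted p = 0.062, adjusted p = 0.420 in limma). It was the 1 of 6 probe sets with no overlap between ages, a share read against 21.7% of all tested probe sets. The first of the Ghrh probe sets showed the same order, at 63.3 and 68.7 in 3-month-old and 35.2 to 50.4 in 2-month-old animals, whereas the other overlapped, at 6.99 and 9.98 in 3-month-old and 6.05 to 10.7 in 2-month-old animals. Fos, an early gene switched on by neuronal activity, had 809 and 668.1 at 3 months against 113.9 to 304.4 at 2 months by its tested probe set, which was singled out after its values were seen. A second, dim Fos probe set overlapped between the ages, at 68.1 and 40.9 at 3 months against 34 to 44.8 at 2 months. The tested probe sets of Dusp1, Egr1, Egr2, Fosb, Ier2, Junb and Nr4a1 were also higher in both 3-month-old animals, without overlap. A dim one of Egr1 overlapped. The summed signal of 11 early-gene probe sets was 5293 and 5038 at 3 months, against 2491 to 3157 at 2 months. The part of this shift in the other values was not tested. Avp did not share this order, since the 3-month-old animals had the lowest and the second highest of the 6 Avp values.

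The circadian clock genes and the array-wide pattern most like Avp were examined beside it. Per1, a core clock gene, read 203.2, 183.9 and 288.4 in knockout replicates 1, 2 and 3, against 118.1, 142 and 326.3 in wild-type replicates 1, 2 and 3, and Per2 read 48.6, 116.8 and 85.8 against 48.2, 64.9 and 102.2. On the same arrays Avp read 338.1, 494.7 and 182.6 against 264.6, 194.5 and 388.5. Any link between Avp and these genes was not tested. Of the 10 tested clock probe sets 0 passed after adjustment (background 0.0268%) and 0 had an unadjusted p under 0.05 (background 6.94%). The lowest p belonged to Dbp, a clock-controlled transcription factor, at -0.33 ± 0.22 (log2 difference, adjusted p = 0.794 in limma). Cry2 had -0.13 ± 0.12, Per1 0.29 ± 0.32, Clock -0.09 ± 0.10, Per2 0.17 ± 0.31 and Arntl 0.06 ± 0.12. Of the 10 only Clock had no overlap between genotypes, a share near the 12.9% of all tested probe sets. The hour of dissection is stated in none of the sources used here. The probe sets closest to Avp, by the root mean square difference of centred log2 values over the 6 arrays, were those of Clns1a, a chloride channel regulator and part of the complex that methylates splicing proteins (0.20), Gtf3c4, a subunit of an RNA polymerase III factor (0.24), and Nnt, a mitochondrial transhydrogenase (0.27). They were picked as the nearest of 6735 candidates, so some likeness was bound to be found. The other probe set of Clns1a, at 561.9 to 744.8 in knockout, against 515 to 577.9 in wild-type brains, did not follow Avp, and neither did the second one of Gtf3c4, in which knockout replicate 2 was the lowest animal at 66.9.

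**Figure D4:**
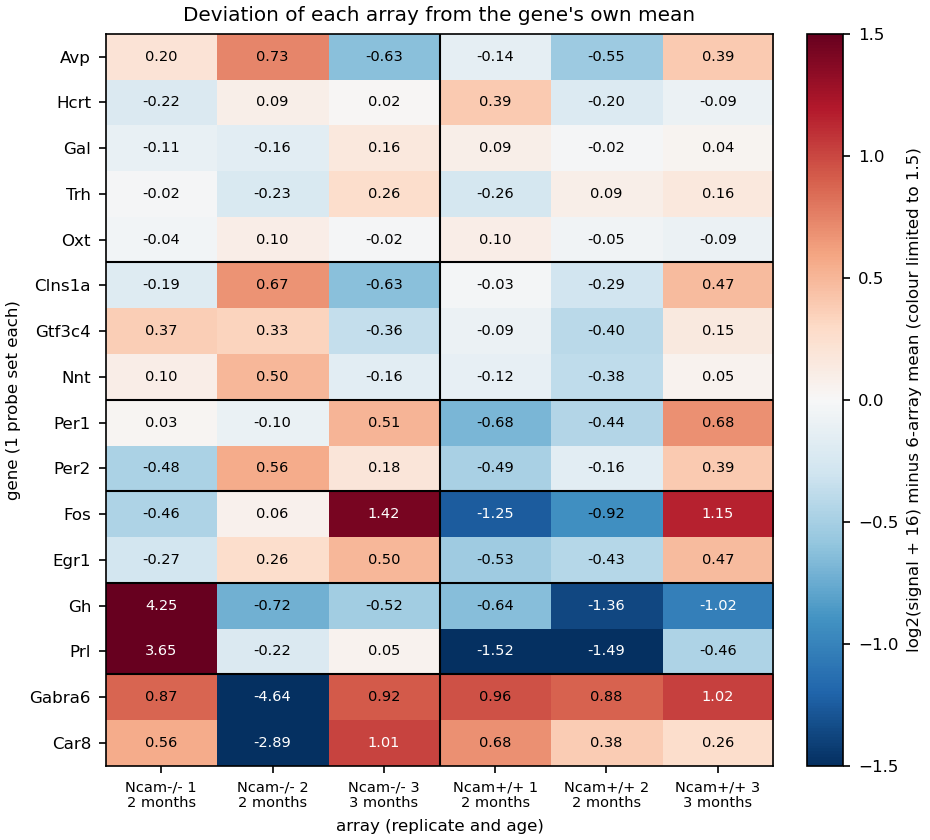
Log2(signal + 16) of each array minus the mean of the 6 arrays, by gene (rows) and array (columns, Ncam-/- left, Ncam+/+ right). Rows are neuropeptides, the 3 genes closest to Avp, clock genes, early genes, pituitary genes and cerebellar genes. Avp ranges from -0.63 to 0.73 and Oxt from -0.09 to 0.10, while Gh stands out at 4.25 in knockout replicate 1 and Gabra6 at -4.64 in knockout replicate 2.

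Receptors of these peptides were mostly too dim in whole brain to be tested. Of 17 receptor genes 9 had a probe set and 3 were bright enough. Of these 3, 0 passed after adjustment (background 0.0268%) and 0 had an unadjusted p under 0.05 (background 6.94%). Ghrhr, the receptor for growth hormone releasing hormone, read 144.8 ± 22.1 in knockout and 113.7 ± 12.4 in wild-type brains (log2 difference 0.30 ± 0.15, adjusted p = 0.743 in limma). It is also on the pituitary list. It read 155.3 in knockout replicate 1, the animal with pituitary transcripts, and 119.4 and 159.7 in knockout replicates 2 and 3. The part of pituitary tissue in these values was not tested. Crhr1, through which corticotropin releasing hormone acts, read 204.4 ± 35.3 and 226.5 ± 15.1 (-0.15 ± 0.14), and Galr1, a galanin receptor, 85.5 ± 20.5 and 97.1 ± 5.21 (-0.18 ± 0.19). The vasopressin receptors Avpr1a and Avpr2 each had a dim probe set without overlap, chosen for mention after their values were seen. Avpr2, best known for its role in the kidney, read 74.3 to 82.4 in knockout, against 48.2 to 68.8 in wild-type brains. Avpr1a, the main vasopressin receptor of the brain, read 39.1 to 42.9 against 18.5 to 36.2, and its other probe set overlapped. Without a filter their unadjusted p were 0.165 and 0.146 in limma, and 12.0% of all 12422 probe sets had no overlap.

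No gene of the machinery that makes peptides from precursors passed the test. Of 17 genes for processing enzymes and granule proteins 13 had a probe set and 11 were tested, by 16 probe sets, with 0 passing after adjustment and 1, which was lower, below an unadjusted p of 0.05, beside the 6.94% of all tested probe sets. Their median log2 difference was 0.04 and 13 of 16 were positive, against 50.4% of all tested, a lean that was not tested. Cadps, Chga, Cpd, Cpe and Scg3 each gave more than 1 of these probe sets, so the signs are not independent. The lower one was Pcsk1n, an inhibitor of prohormone convertase 1, at 2394 ± 159 in knockout and 2815 ± 394 in wild-type brains (log2 difference -0.23 ± 0.10, adjusted p = 0.719 in limma). Its groups did not overlap, nor did those of 12.9% of all tested probe sets. The granins Scg2 and Chgb, proteins packed into secretory granules, had 0.17 ± 0.09 and 0.11 ± 0.09, and Chga, by the probe set with the lower p, -0.08 ± 0.08. Cadps, which primes granules for release, had 0.15 ± 0.10 and 0.04 ± 0.07 by its probe sets, and the convertase Furin 0.10 ± 0.09. Pam, the enzyme that amidates vasopressin, oxytocin, orexins, galanin and thyrotropin releasing hormone, was dim and not tested with the others. It read 117, 42.1 and 45.1 in knockout replicates 1, 2 and 3, against 28.8, 3.82 and 14.1 in wild-type replicates 1, 2 and 3. All knockout values lay above all wild-type values, where 12.0% of all 12422 probe sets had no overlap. Without a filter the log2 difference was 1.38 ± 0.40 (unadjusted p = 0.00902, adjusted p = 0.668 in limma, where 6.27% of all probe sets had an unadjusted p under 0.05). This SE is smaller than the Pam values alone would give, so the unadjusted p rests partly on other probe sets. Its highest value was in knockout replicate 1, the animal with pituitary transcripts, whose part in it was not tested. Pam was singled out after its values were seen.

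Other peptide precursors and regional genes gave a similar picture. Of 22 further precursor genes 14 had a probe set and 11 were tested, by 13 probe sets, with 0 passing after adjustment and 1, Pomc, higher at an unadjusted p under 0.05, again beside 6.94% of all tested. Pomc, the precursor of corticotropin and melanocortins, read 704.1, 171.8 and 132.7 in knockout replicates 1, 2 and 3, against 34.4, 127.5 and 125 in wild-type replicates 1, 2 and 3 (log2 difference 1.43 ± 0.59, adjusted p = 0.719 in limma). Pomc varied more than is usual at its brightness. Its SE is thus smaller than its values alone would give, and its unadjusted p rests partly on other probe sets. Its groups did not overlap, nor did those of 12.9% of all tested probe sets. It is also a pituitary gene, and its highest value again came from knockout replicate 1. Tac1, the substance P precursor, had 0.18 ± 0.13, Adcyap1 0.14 ± 0.11, Tac2 0.13 ± 0.12, Penk, the enkephalin precursor, 0.08 ± 0.07 by its _f_at probe set, and Sst, somatostatin, -0.07 ± 0.09. Of 31 transcription factors and other genes enriched in the hypothalamus, 22 had a probe set and 8 were bright enough, tested by 10 probe sets. Of these 0 passed after adjustment and 1 was higher at an unadjusted p under 0.05, a share to be read against the same 6.94%. That one was Gsx1, a homeobox gene needed for the growth hormone releasing neurons, at 138 ± 9.55 in knockout and 97.8 ± 17.5 in wild-type brains (log2 difference 0.45 ± 0.16, adjusted p = 0.664 in limma). It had no overlap, to be read against the same 12.9%. Arnt2, a factor needed to form vasopressin and oxytocin neurons, had -0.22 ± 0.13, Otp, which is needed for the same neurons, 0.15 ± 0.19, and Lhx1 -0.21 ± 0.18. Of the 5 Nr5a1 probe sets 3 were tested, the ordinary one at 0.08 ± 0.13, the _r_at one at 0.11 ± 0.16 and the _s_at one at -0.12 ± 0.19.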

How the data were processed

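Total brain RNA was extracted and hybridised to 1 array per animal, per the labels' protocols. The authors deposited linear signal intensities per probe set, and GCOS 1.4 is named in the submitters' processing notes. The algorithm is stated in none of the sources used here, and the trimmed mean of 300.2 on every array points to scaling by the authors to a common target. After 66 control entries were set aside, 12422 probe sets were left, of which 10833 had 1 gene symbol, 396 several and 1193 none in the platform annotation. Values were transformed as log2(signal + 16), which understates folds of dim genes, and the 7453 probe sets at or above the 40th percentile of mean log2 value were tested.

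The test was two-sided, in limma 3.58.1 under R 4.3.3, using lmFit followed by eBayes with its trend option and no covariate, and Benjamini-Hochberg adjustment covered all tested probe sets (threshold 0.05). The number of arrays limits the precision. The procedure was tested on simulated data. Replicates are separate animals, per the labels. The members and gene lists were chosen with earlier results of these data known. The naming rule gives every neuropeptide probe set and, of each list of receptors, processing, other peptides, regional and clock genes, any called gene and up to 6 with the lowest p. For likeness to a neuropeptide whose log2 values span over 1, it gives the 3 nearest probe sets. Alternatives tried were a replicate block, age as a covariate, only the animals aged 2 months, leaving out each array, other normalisations, pseudocounts, filters, variance models, array weights and gene means. Figures were drawn with matplotlib 3.10.9.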

Additional observations from a re-analysis of the deposited data

Results flagged for a closer look

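Avp and Gal drew attention because their knockout and wild-type animals were ordered 1 way at 2 months and the opposite way at 3 months. For Avp the log2 difference was 0.81 at 2 months, with both knockout animals above both wild-type animals, and -1.03 at 3 months, and the change from 2 to 3 months was -1.83 (adjusted p = 0.511 for the interaction in limma). For Gal, by its ordinary probe set, it was -0.18 at 2 months, with both knockout animals below both wild-type animals, and 0.13 at 3 months, a change of 0.31 (adjusted p = 0.923 for the interaction in limma). The less specific Gal probe set did not show this order. An opposite order of this kind was found for 13.7% of all 7453 tested probe sets, and each age group held few animals.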

How the results depend on the processing

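No neuropeptide probe set passed an adjusted p under 0.05 in limma under any of the 19 alternatives, and the median log2 difference of those tested stayed between -0.07 and 0.03. The count with an unadjusted p under 0.05 was 0 except in 2-month-old animals alone, where it was 1 (Avp). The count without overlap was 0 with all animals, 2 of 8 in 2-month-old animals alone, where 36.5% of all tested probe sets did not overlap, 0 to 1 with any 1 array left out, where 20.2% to 27.9% did not, and 4 without knockout replicates 1 and 2, an alternative added after seeing the data, in which 1 knockout animal remained and 61.0% of all tested probe sets did not overlap. The Avp difference ranged from -0.54 to 0.81 over the alternatives and was negative in 3 of 19, that of Oxt from -0.03 to 0.08, of Hcrt from -0.21 to 0.11, of Gal (ordinary probe set) from -0.18 to 0.13 and of Trh from -0.12 to 0.26. Over all probe sets, the number passing was 2 with all animals and 2 with the replicate number as a block, 1 with quantile normalisation, with median centring, without a filter and without an intensity trend, 4 with array weights, 0 when probe sets were averaged per gene, and 1 to 3 with any 1 array left out. The deviations of same-numbered animals from their group means correlated at 0.0149, 0.147 and 0.201 for replicates 1, 2 and 3, and knockout replicate 1 correlated better with wild-type replicate 2 (0.0814), so the numbers were not taken to pair the animals. The block changed no neuropeptide call. Ghrh was tested only without a filter, but its probe sets are included in the counts without overlap, whereas the shares beside those counts cover tested probe sets only. Detection calls were not used here, so how far dim signals such as those of Ghrh and Pam lie above background is unknown.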
